A study of Mus musculus with 8 samples.

Results

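The mitochondrial carriers are the family of proteins that move metabolites, nucleotides, cofactors and ions through the inner mitochondrial membrane. They were taken as every gene whose mouse symbol is Slc25a followed by a number alone, and 47 of the 21959 genes in the deposited table met that rule. The RNA came from hand-picked oocytes of mouse ovaries at postnatal day 1 (P1), in 4 libraries from Rbpms2 knockout (KO) mice and 4 from wild-type (WT) mice, each a tube of 5 to 10 putative primordial oocytes whose mRNA was amplified for 18 cycles. Both genotypes were handled the same way, and the labels give neither the strain, nor the part of Rbpms2 that was deleted, nor whether deletion was limited to a cell type, nor which tubes came from separate mice. P-values therefore rest on how much tubes of 1 genotype vary, and that variation may be technical. In such tubes, fewer cells of a type and less RNA per cell cannot be told apart.

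Each carrier is a small membrane protein, and most share a fold of repeated helix pairs around a central substrate path. Carriers are made in the cytosol and reach the inner membrane through the outer membrane pore, small chaperones of the space between the membranes and the TIM22 insertase. The ADP/ATP carriers exchange the ATP made in mitochondria for ADP from the cytosol. Mice have a form abundant in heart and muscle (Slc25a4), a form used by most tissues (Slc25a5, on the X chromosome) and a germ cell form (Slc25a31), which male mice need to complete meiosis. Oocytes of newborn mice are in or near the end of meiotic prophase.

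In the knockout libraries the germ cell ADP/ATP carrier and both pyrimidine nucleotide carriers were called higher. Carriers of S-adenosylmethionine, glutathione, citrate and ornithine, and 1 of 2 iron carriers, were among those called lower. The calls of Slc25a31 (adjusted p = 0.146) and Slc25a36 (adjusted p = 0.0930), though not that of Slc25a33, ended when the limma test was run after a correction for the GC content of transcripts. Of the 47 members, 39 had an FPKM (fragments scaled to exon length and to sequencing depth) of 1 or more in at least 4 libraries and were tested, while 8 were not. Limma on log2(FPKM + 1), with p-values adjusted over all 11235 genes tested and a threshold of 0.05, called 13 of the 39, against 43.4% of all genes tested. These were 3 higher in knockout (7.69% of the members, against 17.7% of all genes) and 10 lower (25.6% of the members, against 25.6% of all genes). The shares of members called and called lower were thus near or under the background and are no result about the family. The median log2 fold change was -0.43 over the 39 members and -0.12 over all genes tested. After median-of-ratios scaling these medians were -0.30 and 0.00. After the GC correction they lay closer together, at -0.22 and -0.17. With a filter at 5 FPKM, which left 20 members to test, they were -0.12 and -0.11.

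**Figure D1:**
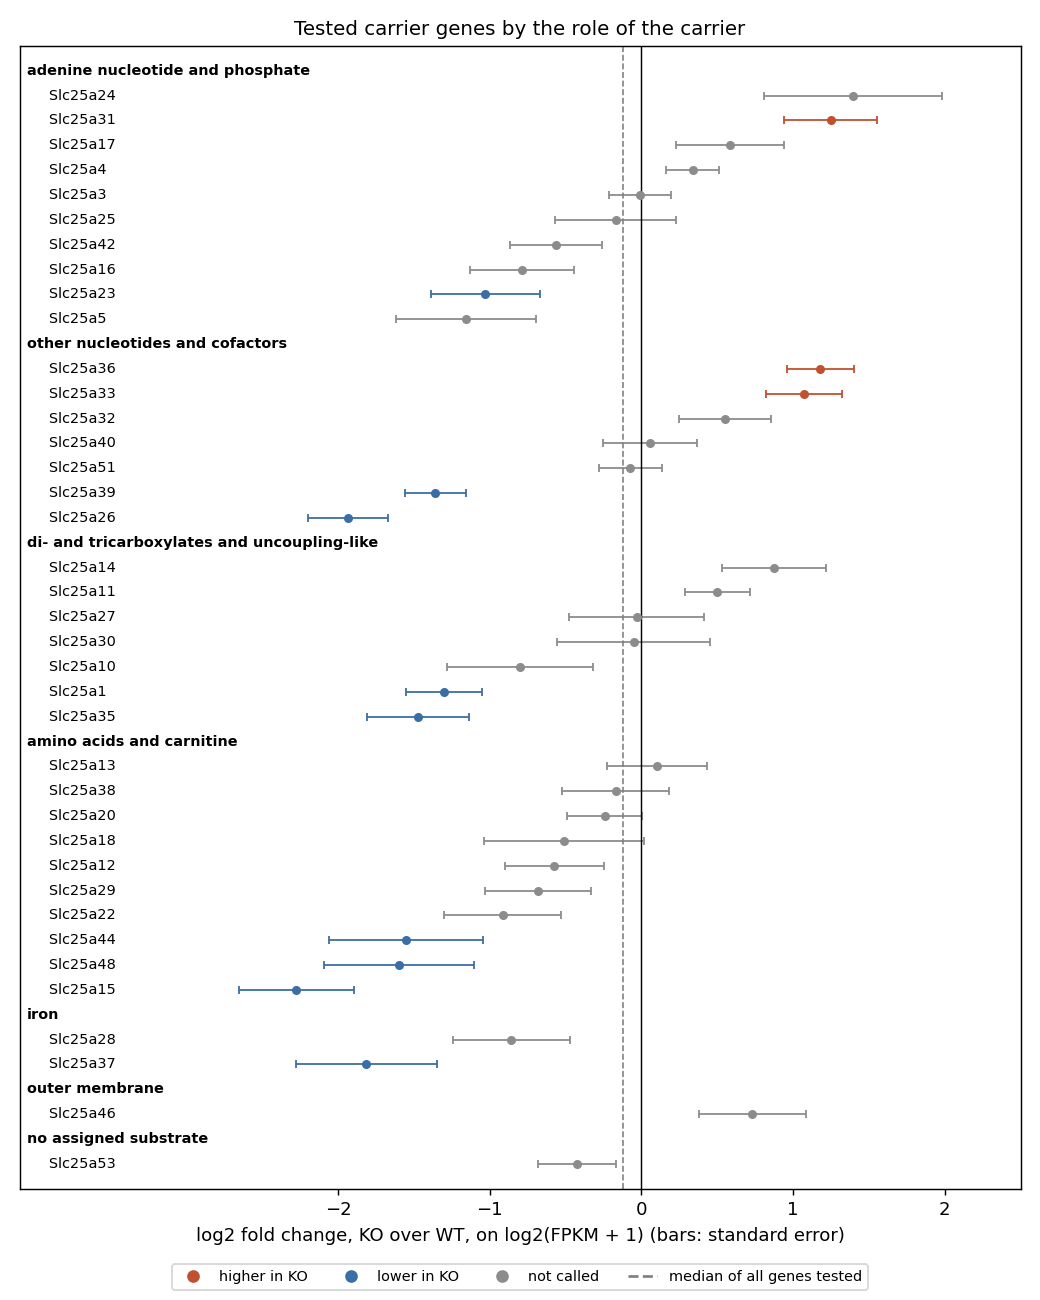
Log2 fold change of the tested carrier genes reported here, KO over WT, on the log2(FPKM + 1) scale (x axis), with 1 row per gene grouped by what the carrier moves. Points are limma estimates from 4 KO and 4 WT libraries, bars are standard errors, the dashed line is the median of all genes tested (-0.12), and colours give the call at an adjusted p of 0.05. The 3 genes called higher are nucleotide carriers, and those called lower are spread over 5 of the role groups.

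The promoters of the 3 ADP/ATP carriers and of the other 2 members called higher are shown so that the members called higher can be read beside the somatic ADP/ATP carriers, which were not called. The sequences are RefSeq's in GRCm38.p6, from 250 bases before to 50 after the annotated start, 5′ to 3′ on the gene's strand. Capitals mark CACGTG, the E-box core bound by MAX partners and USF proteins, and TCCCGC on either strand (its reverse complement is GCGGGA), a core of E2F family sites. The windows are chr3:40708621-40708920 (plus strand) for Slc25a31, chr8:46211013-46211312 (minus) for Slc25a4, chrX:36795347-36795646 (plus) for Slc25a5, chr4:149774218-149774517 (minus) for Slc25a33 and chr9:97110992-97111291 (minus) for Slc25a36.
Slc25a31: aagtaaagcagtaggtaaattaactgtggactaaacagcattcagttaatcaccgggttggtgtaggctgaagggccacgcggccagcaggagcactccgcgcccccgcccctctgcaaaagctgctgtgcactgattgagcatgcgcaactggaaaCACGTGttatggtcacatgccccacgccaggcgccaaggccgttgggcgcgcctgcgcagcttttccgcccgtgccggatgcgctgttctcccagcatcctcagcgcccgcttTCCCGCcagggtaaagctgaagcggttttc
Slc25a4: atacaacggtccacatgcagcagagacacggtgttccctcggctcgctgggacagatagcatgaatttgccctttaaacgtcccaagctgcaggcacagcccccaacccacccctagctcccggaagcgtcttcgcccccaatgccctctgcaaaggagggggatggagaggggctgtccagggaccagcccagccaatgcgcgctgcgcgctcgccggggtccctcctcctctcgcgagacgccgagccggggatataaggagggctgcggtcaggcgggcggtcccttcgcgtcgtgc
Slc25a5: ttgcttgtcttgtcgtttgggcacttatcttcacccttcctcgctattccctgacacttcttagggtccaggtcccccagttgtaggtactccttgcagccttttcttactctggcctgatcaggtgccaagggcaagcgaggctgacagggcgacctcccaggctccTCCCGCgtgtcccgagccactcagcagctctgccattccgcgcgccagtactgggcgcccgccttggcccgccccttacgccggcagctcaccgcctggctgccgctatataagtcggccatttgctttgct
Slc25a33: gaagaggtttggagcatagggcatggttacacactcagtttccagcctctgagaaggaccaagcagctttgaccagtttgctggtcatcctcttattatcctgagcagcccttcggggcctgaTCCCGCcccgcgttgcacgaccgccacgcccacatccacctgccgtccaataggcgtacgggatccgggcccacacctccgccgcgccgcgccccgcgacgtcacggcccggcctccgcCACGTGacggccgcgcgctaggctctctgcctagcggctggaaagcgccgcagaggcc
Slc25a36: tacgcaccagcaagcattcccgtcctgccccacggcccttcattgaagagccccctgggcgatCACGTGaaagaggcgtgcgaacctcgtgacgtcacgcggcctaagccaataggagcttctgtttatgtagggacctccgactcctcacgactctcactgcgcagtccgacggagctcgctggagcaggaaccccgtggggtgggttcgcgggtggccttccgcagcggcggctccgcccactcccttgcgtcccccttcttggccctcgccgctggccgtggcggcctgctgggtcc
The E-box letters stood in the windows of all 3 members called higher from FPKM as deposited, and in neither Slc25a4 nor Slc25a5. After the GC correction those called higher were Slc25a33, Slc25a11 and Slc25a4, and of these only Slc25a33 held the letters. Promoters of Slc25a13 and Slc25a14, which were not called, also held them. Of the 7 promoters found for members called lower, 2 held them. Over the family, 36 members had 46 promoters, 8 of which held CACGTG (17.4%), against 7.15% of 32851 promoters of all genes. TCCCGC stood in 11 of the 46 (23.9%), against 6562 of all 32851 promoters, and both cores stood together in 4 (8.7%, against 1.99% of all). These 4 belong to Slc25a31 and Slc25a33, called higher, and to Slc25a1 and Slc25a15, called lower. The ETS core CCGGAAG, read on both strands, was in 7 of the 46 (15.2%, against 8.86% of all) and in the window of Slc25a4 but of none of the 3 members called higher. These are matches of letters in a window, not measured binding. Each of these cores holds a C followed by a G (CpG). The windows of Slc25a31, Slc25a4, Slc25a5, Slc25a33 and Slc25a36 hold 22, 25, 18, 30 and 29 CpG. The median over all promoters is 7. The shares of promoters were not matched for CpG, so they do not show a motif trait of carriers.

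Slc25a31 (ENSMUSG00000069041, chromosome 3, 40708855 to 40726096 in GRCm38) had the highest mean of all carriers in both genotypes. Its level was 428.7, 635.2, 256.7 and 516.5 FPKM in knockout replicates 1 to 4 and 167.8, 279.8, 122.4 and 195.1 FPKM in wild-type replicates 1 to 4. Knockout replicate 3 lay below wild-type replicate 2, so the genotypes overlapped, while the other 3 knockout libraries lay above every wild-type one. The means were 459.3 ± 159.4 FPKM in knockout and 191.3 ± 66.2 FPKM in wild type (SD, n = 4 each), 2.40-fold higher in knockout. On the log2(FPKM + 1) scale the difference was 1.25 (standard error 0.31, limma adjusted p = 0.00755). Its transcript has a GC content of 41.1%, and removing each library's trend of level against transcript GC content (the GC correction) left a log2 fold change of 0.59 and no call (limma adjusted p = 0.146).

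The somatic forms of the ADP/ATP carrier were not called. Slc25a5 (ENSMUSG00000016319, chromosome X, 36795651 to 36798807) had 89.9, 130.3, 121.4 and 22.9 FPKM in knockout replicates 1 to 4 and 154.8, 221.7, 142.8 and 170.0 FPKM in wild-type replicates 1 to 4. All knockout libraries lay below all wild-type ones, with knockout replicate 4 far below the rest. The log2 fold change was -1.15 with a standard error of 0.46 and was not called (limma adjusted p = 0.0642), though it was called without knockout replicate 2 (adjusted p = 0.0406), without knockout replicate 3 (adjusted p = 0.0379) and without knockout replicates 2 and 3 and wild-type replicate 3 (adjusted p = 0.0142). Without knockout replicate 4 the log2 fold change was -0.59 and not called (adjusted p = 0.0544). Slc25a4 (ENSMUSG00000031633, chromosome 8, 46206797 to 46211284) had 141.5, 182.3, 195.7 and 151.1 FPKM in knockout replicates 1 to 4 and 134.2, 147.9, 110.2 and 135.9 FPKM in wild-type replicates 1 to 4. These overlapped, and the log2 fold change of 0.34 was not called (limma adjusted p = 0.140), whereas after the GC correction it was 0.48 and was called (adjusted p = 0.0372).

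As a share of the summed FPKM of the ADP/ATP carriers, which compares them per length within a library, Slc25a31 made up 64.9%, 67.0%, 44.7% and 74.8% in knockout replicates 1 to 4 and 36.7%, 43.1%, 32.6% and 38.9% in wild-type replicates 1 to 4. The lowest knockout share was just above the highest wild-type one. All shares are from FPKM as deposited and were not corrected for GC content. That content is 41.1% for Slc25a31, 51.8% for Slc25a4 and 48.6% for Slc25a5. After the GC correction their log2 fold changes were 0.59, 0.48 and -1.24, so Slc25a31 and Slc25a4 then differed little. Slc25a5 made up less in knockout, with 13.0 ± 7.33% in knockout and 35.0 ± 2.03% in wild type (SD, n = 4 each) and no overlap. Slc25a4 held 24.2 ± 6.73% in knockout and 27.2 ± 3.11% in wild type (SD, n = 4 each), with overlap. Summed, the ADP/ATP carriers came to 718.0 ± 160.9 FPKM in knockout and 495.7 ± 114.9 FPKM in wild type (SD, n = 4 each), with overlap, and to 61.9 ± 4.41% and 47.2 ± 5.39% of the whole family's FPKM, without overlap. The coding sequences are 66.2% (Slc25a31 and Slc25a4), 66.6% (Slc25a31 and Slc25a5) and 77.4% (Slc25a4 and Slc25a5) identical over the aligned bases. The longest stretch identical in any of these pairs is 21 bases. Retrocopies of these genes elsewhere in the genome were not compared, and how the authors treated reads with several matches is not given in the sources used here.

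**Figure D2:**
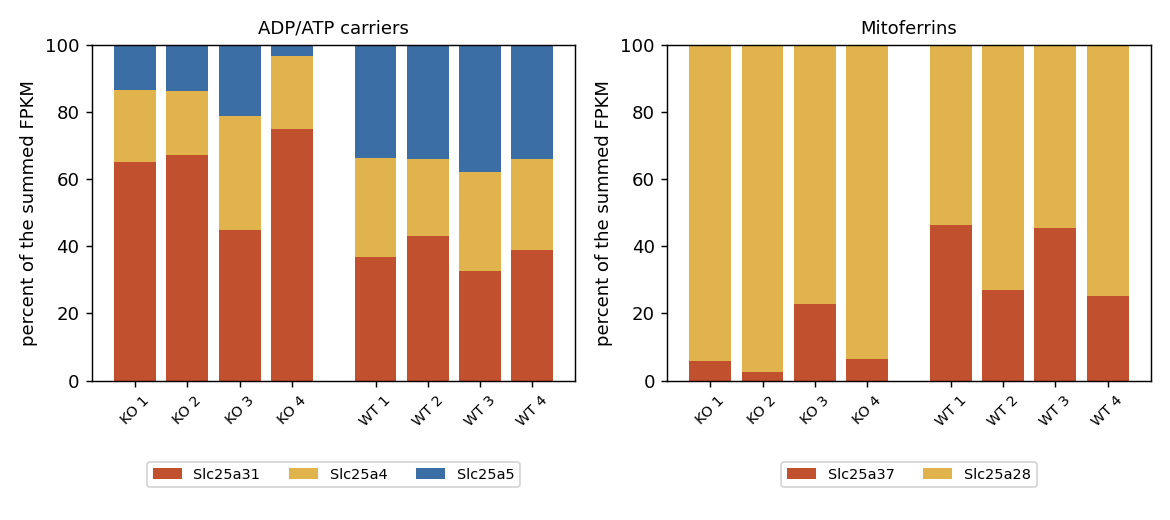
Share of the summed FPKM within 2 sets of carrier paralogs (y axis, percent) in each of the 4 KO and 4 WT libraries (x axis). The FPKM are as deposited, with no GC correction. Slc25a31 takes 44.7% to 74.8% of the ADP/ATP carrier FPKM in the KO libraries and 32.6% to 43.1% in the WT libraries, and Slc25a37 takes 2.61% to 22.9% of the mitoferrin FPKM in the KO libraries and 25.3% to 46.3% in the WT libraries.

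Among the other carriers of adenine nucleotides and phosphate, the main phosphate carrier was not called. Slc25a3, which brings phosphate in for ATP synthesis, averaged 74.7 ± 14.0 FPKM in knockout and 75.4 ± 15.1 FPKM in wild type (SD, n = 4 each), a log2 fold change of -0.01 (standard error 0.20, limma adjusted p = 0.979). Slc25a17, a carrier of the peroxisome for coenzyme A and related cofactors, had 108.6, 69.3, 37.8 and 106.1 FPKM in knockout replicates 1 to 4 and 79.9, 48.6, 32.8 and 45.8 FPKM in wild-type replicates 1 to 4. It overlapped and was not called (adjusted p = 0.207), but was called higher without knockout replicate 3 (adjusted p = 0.0299) and without knockout replicates 2 and 3 and wild-type replicate 3 (adjusted p = 0.0238). Of the 11 members in this group 10 were tested, with 1 higher, 1 lower and 8 not called, beside 17.7% higher and 25.6% lower over all genes tested, and Slc25a41 was not tested.

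The ATP-Mg/phosphate carriers (Slc25a23, Slc25a24, Slc25a25 and Slc25a41) were all low. Slc25a23 had 0.872, 1.92, 3.09 and 1.34 FPKM in knockout replicates 1 to 4 and 2.97, 3.40, 8.19 and 4.65 FPKM in wild-type replicates 1 to 4, with knockout replicate 3 above wild-type replicate 1. It was called lower (log2 fold change -1.03, limma adjusted p = 0.0381), but the call ended after the GC correction (-0.60, adjusted p = 0.192), without a filter on low values (still -1.03, adjusted p = 0.0860) and on leaving out knockout replicate 1, 2 or 4 or wild-type replicate 2, 3 or 4 (adjusted p from 0.0516 to 0.0984). Slc25a24 (a gene chosen after its values were seen) had 7.78, 2.81, 5.26 and 0 FPKM in knockout replicates 1 to 4 and 0.366, 0.235, 0.242 and 1.09 FPKM in wild-type replicates 1 to 4. It was not called (adjusted p = 0.0758), and was called higher when knockout replicate 4, the library with none of it, was left out (adjusted p = 0.00210). Within this set Slc25a23 held 25.3 ± 12.3% of the FPKM in knockout and 61.4 ± 11.5% in wild type (SD, n = 4 each), without overlap, while the sum of the set was 8.23 ± 3.78 and 7.99 ± 3.83 FPKM.

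Both carriers of pyrimidine nucleotides, which supply mitochondrial DNA and RNA synthesis, were called higher. Slc25a36 (ENSMUSG00000032449, chromosome 9, 97074961 to 97111157) had 26.3, 16.2, 21.8 and 22.02 FPKM in knockout replicates 1 to 4 and 7.92, 9.81, 10.3 and 7.57 FPKM in wild-type replicates 1 to 4. Slc25a33 (ENSMUSG00000028982, chromosome 4, 149744036 to 149774277) had 9.42, 10.6, 10.4 and 15.5 FPKM in knockout replicates 1 to 4 and 6.61, 4.37, 4.33 and 4.33 FPKM in wild-type replicates 1 to 4. Neither overlapped between the genotypes. Their log2 fold changes were 1.18 with a standard error of 0.22 for Slc25a36 (limma adjusted p = 0.00163) and 1.07 with a standard error of 0.25 for Slc25a33 (adjusted p = 0.00551). After the GC correction Slc25a36, with a GC content of 40.7%, was at 0.50 and not called (adjusted p = 0.0930), and Slc25a33, with 53.8%, was at 1.32 and called (adjusted p = 0.00263). Together they came to 33.1 ± 4.70 FPKM in knockout and 13.8 ± 1.30 FPKM in wild type (SD, n = 4 each), and Slc25a36 held 65.2% and 64.4% of that sum on average.

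Cofactor carriers were among those called lower. Slc25a26 (ENSMUSG00000045100, chromosome 6, 94500331 to 94604672), which imports S-adenosylmethionine, the methyl donor, had 3.15, 3.16, 3.48 and 2.18 FPKM in knockout replicates 1 to 4 and 12.6, 13.5, 11.04 and 21.05 FPKM in wild-type replicates 1 to 4. No knockout library came near a wild-type one. It was 4.86-fold lower, with a log2 fold change of -1.93 (standard error 0.26, limma adjusted p = 0.000237, the smallest of the family). Slc25a39 (ENSMUSG00000018677, chromosome 11, 102402985 to 102407946), which brings glutathione into mitochondria, had 53.9, 41.8, 37.5 and 33.5 FPKM in knockout replicates 1 to 4 and 128.2, 107.2, 86.6 and 109.4 FPKM in wild-type replicates 1 to 4. It was 2.59-fold lower, without overlap (log2 fold change -1.36, adjusted p = 0.000382). Its paralog Slc25a40 was not called, at 3.27 ± 1.23 FPKM in knockout and 2.98 ± 0.623 FPKM in wild type (SD, n = 4 each), and the summed FPKM of Slc25a39 and Slc25a40 was 44.9 ± 9.02 and 110.8 ± 16.9.

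The folate carrier Slc25a32 (9.13 ± 3.01 FPKM in knockout and 5.96 ± 2.25 FPKM in wild type) and the NAD carrier Slc25a51 (11.7 ± 1.20 and 12.4 ± 1.82 FPKM, SD, n = 4 each) were not called. The cofactor and nucleotide group thus held 2 members called higher, 3 called lower and 3 not called out of 8, beside 17.7% higher and 25.6% lower over all genes tested.

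**Figure D3:**
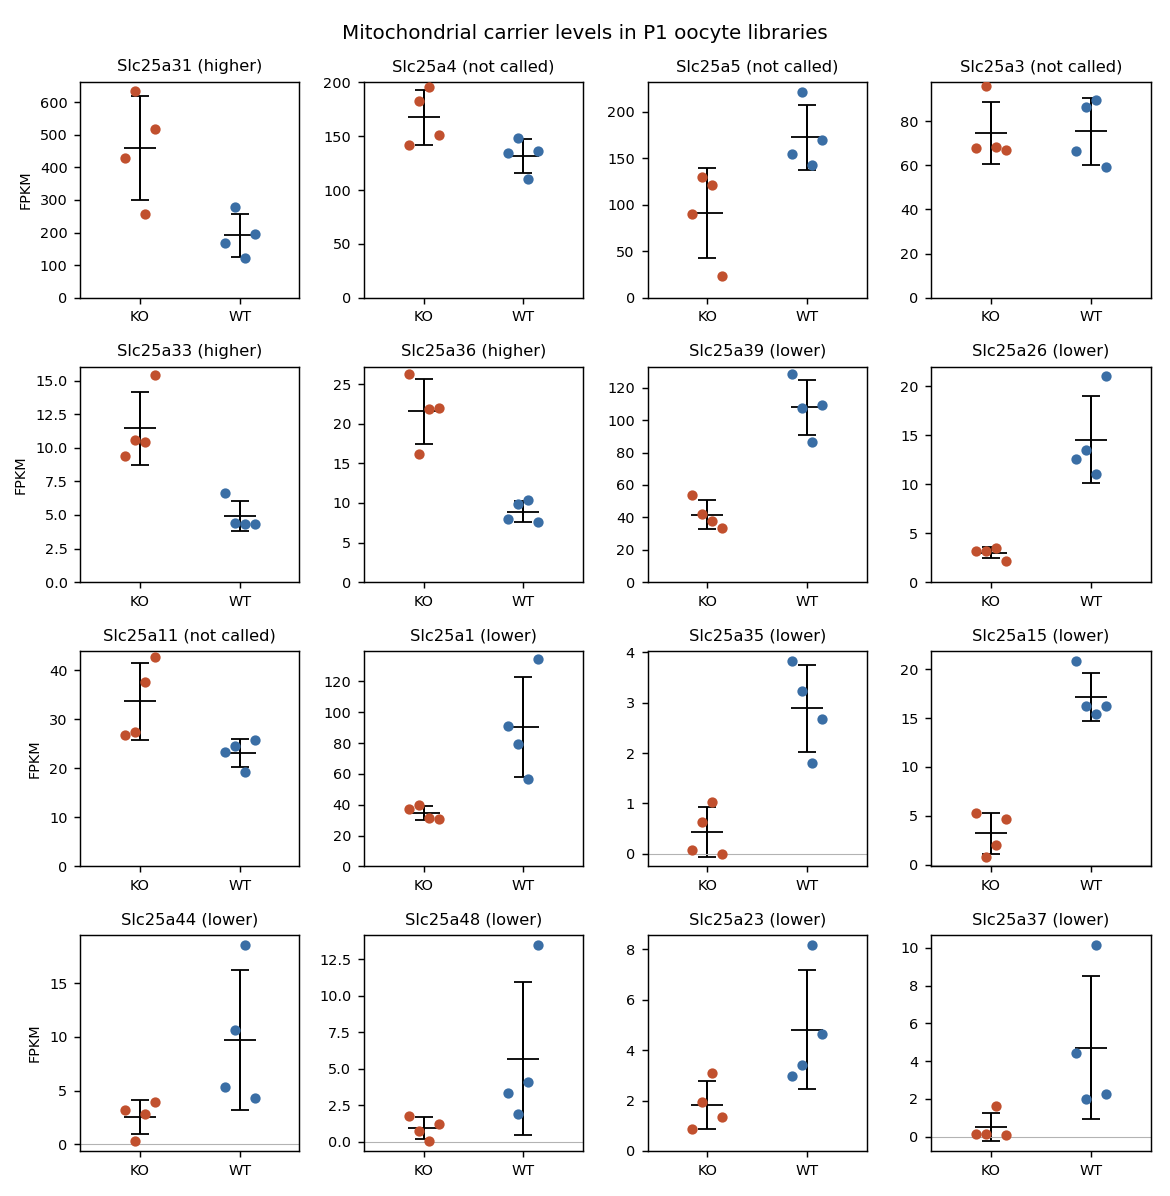
FPKM (y axes, each from 0 or just below and to its own scale) of 16 carrier genes in 4 KO (left, red) and 4 WT (right, blue) libraries. Points are libraries, the horizontal mark is the mean, the bars are 1 SD, and the words in the titles give the call in KO. Called genes are shown with Slc25a4, Slc25a5, Slc25a3 and Slc25a11, and KO and WT points overlap in Slc25a31 and Slc25a23 among the called ones.

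Of the carriers of di- and tricarboxylates and their relatives, 2 of 7 tested were called lower, a share near the 25.6% of all genes tested, and none higher, against 17.7%. Slc25a1 (ENSMUSG00000003528, chromosome 16, 17925223 to 17928219) exports citrate, the source of cytosolic acetyl-CoA. It had 37.1, 39.8, 31.2 and 30.6 FPKM in knockout replicates 1 to 4 and 91.2, 79.4, 56.7 and 134.4 FPKM in wild-type replicates 1 to 4, 2.61-fold lower without overlap (log2 fold change -1.30, standard error 0.25, limma adjusted p = 0.00193). Slc25a35, whose substrate is not firmly known, had 0.0698, 0.636, 1.03 and 0 FPKM in knockout replicates 1 to 4. In wild-type replicates 1 to 4 it had 3.83, 3.23, 1.80 and 2.68 FPKM (limma adjusted p = 0.00477). It met the filter of 1 FPKM only through its wild-type libraries, the genotype where it is high. Of its exon length 31.3% also lies in exons of Rangrf on the opposite strand, and no source used here says whether counting used strand, so reads of the pair may not be separable.

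The oxoglutarate and malate exchanger Slc25a11, part of the malate-aspartate shuttle, averaged 33.6 ± 7.82 FPKM in knockout and 23.1 ± 2.82 FPKM in wild type (SD, n = 4 each). All its knockout libraries (26.8 to 42.7 FPKM) lay above all wild-type ones (19.2 to 25.7 FPKM), but it was not called (log2 fold change 0.50, limma adjusted p = 0.0784). It was called after the GC correction (0.78, adjusted p = 0.0190) and after median-of-ratios scaling (0.65, adjusted p = 0.0473). Slc25a14, a relative of the uncoupling proteins, had 36.7, 26.0, 10.7 and 24.1 FPKM in knockout replicates 1 to 4 and 13.7, 15.4, 9.72 and 9.30 FPKM in wild-type replicates 1 to 4. It was not called (adjusted p = 0.0598), but was called without knockout replicate 3 (adjusted p = 0.00389), after median-of-ratios scaling (adjusted p = 0.0433) and without knockout replicates 2 and 3 and wild-type replicate 3 (adjusted p = 0.0148). Slc25a10, the dicarboxylate carrier (chosen after its values were seen), had 5.07, 23.4, 4.42 and 3.33 FPKM in knockout replicates 1 to 4 and 13.1, 13.8, 15.6 and 8.24 FPKM in wild-type replicates 1 to 4. Knockout replicate 2 stood above every other library, and the gene was not called with it (adjusted p = 0.202) but was called lower without it (adjusted p = 0.00450). It was also called lower without knockout replicates 2 and 3 and wild-type replicate 3 (limma adjusted p = 0.0151).

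Among carriers of amino acids and related compounds 3 of 10 tested were called lower, a share near the 25.6% of all genes tested, and none higher, against 17.7%. Slc25a15 (ENSMUSG00000031482, chromosome 8, 22375551 to 22398597), the ornithine carrier, which in liver serves the urea cycle, had 5.30, 0.818, 1.97 and 4.68 FPKM in knockout replicates 1 to 4 and 20.8, 16.2, 15.4 and 16.3 FPKM in wild-type replicates 1 to 4. It was 5.38-fold lower without overlap, and its log2 fold change of -2.28 with a standard error of 0.38 was the lowest of the 39 tested members (limma adjusted p = 0.000832). Its paralog Slc25a2 reached at most 1.12 FPKM in any library and was not tested.

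Slc25a44, a carrier of branched-chain amino acids, had 3.18, 0.307, 2.82 and 3.97 FPKM in knockout replicates 1 to 4 and 5.31, 10.6, 18.5 and 4.33 FPKM in wild-type replicates 1 to 4. The genotypes did not overlap but came close (limma adjusted p = 0.0294). The log2 fold change of -1.55 was -1.32 after the GC correction (adjusted p = 0.0732) and -1.55 without a filter (adjusted p = 0.0734), of about the same size but not called. The call also ended without knockout replicates 2 and 3 and wild-type replicate 3 (-0.68, adjusted p = 0.193), and without knockout replicate 2 (adjusted p = 0.0679) or wild-type replicate 2 (adjusted p = 0.0751) or 3 (adjusted p = 0.0806). Slc25a48, linked to choline import, had 1.77, 0.713, 0.0498 and 1.21 FPKM in knockout replicates 1 to 4 and 3.33, 1.91, 4.11 and 13.5 FPKM in wild-type replicates 1 to 4. Its wild-type mean rests largely on replicate 4, and the call (adjusted p = 0.0227) ended without that library (adjusted p = 0.0530), without knockout replicate 3 (adjusted p = 0.0517), and without knockout replicates 2 and 3 and wild-type replicate 3 (adjusted p = 0.164). Of about the same size but not called, its log2 fold change of -1.60 was -1.33 once GC content was corrected for (adjusted p = 0.0537) and -1.60 with low genes kept in (adjusted p = 0.0626).

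The aspartate and glutamate carriers, the other arm of the malate-aspartate shuttle, were low and not called. Slc25a12 had 2.19 ± 1.13 FPKM in knockout and 3.70 ± 1.32 FPKM in wild type, and Slc25a13 had 3.97 ± 1.97 and 3.48 ± 1.004 FPKM (SD, n = 4 each). Slc25a20, which carries acylcarnitines for fatty acid oxidation, stood at 11.1 ± 2.20 and 13.4 ± 3.58 FPKM (SD, n = 4 each), and Slc25a38, which serves haem synthesis, at 6.17 ± 3.09 and 6.95 ± 2.95 FPKM (SD, n = 4 each). Neither was called.

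Of the iron carriers the erythroid form was lower. Slc25a37 (mitoferrin-1, chromosome 14, 69241848 to 69285112), which supplies iron for haem in red cell precursors, had 0.156, 0.148, 1.62 and 0.104 FPKM in knockout replicates 1 to 4 and 4.41, 1.97, 10.1 and 2.28 FPKM in wild-type replicates 1 to 4. The genotypes did not overlap, and wild-type replicate 3 was the highest library (9.27-fold lower in knockout, log2 fold change -1.81, standard error 0.47, limma adjusted p = 0.00918). The fold of the means rests on single libraries, since it was 34.5-fold lower without knockout replicate 3 and 5.70-fold lower without wild-type replicate 3. The log2 fold changes were then -2.11 (limma adjusted p = 0.00401) and -1.42 (limma adjusted p = 0.0209). Slc25a37 met the filter of 1 FPKM only through its wild-type libraries, so that it was tested rests on the genotype where it is high. Its paralog Slc25a28 (mitoferrin-2), used more widely, had 2.46, 5.54, 5.44 and 1.53 FPKM in knockout replicates 1 to 4 and 5.12, 5.37, 12.2 and 6.73 FPKM in wild-type replicates 1 to 4, and was not called (adjusted p = 0.0943). Without knockout replicates 2 and 3 and wild-type replicate 3, Slc25a28 was called lower too (log2 fold change -1.18, limma adjusted p = 0.0189). Slc25a37 made up 9.46 ± 9.12% of the mitoferrin FPKM in knockout and 35.9 ± 11.4% in wild type (SD, n = 4 each), without overlap. The 7 erythroid markers (globins and Alas2 among them) summed to 101.8, 2819, 3212 and 99.6 FPKM in knockout replicates 1 to 4 and to 4211, 160.7, 5368 and 11.9 FPKM in wild-type replicates 1 to 4. None was at 0 in every library, and of 5 tested none was called. Wild-type replicates 1 and 3 were highest in both Slc25a37 and the markers, whereas wild-type replicate 4, lowest in the markers, had more Slc25a37 than any knockout library. The part of red cell RNA in this difference was not tested.

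The remaining members were low. Slc25a46, a carrier relative of the outer membrane that acts in mitochondrial shape, had 7.24 ± 3.19 FPKM in knockout and 3.61 ± 0.554 FPKM in wild type (SD, n = 4 each) and was called only without knockout replicate 4 (limma adjusted p = 0.115 with all libraries and 0.00906 without that one). In all, 20 tested members fell outside the genes named by rule, with means of 0.586 to 11.7 FPKM in knockout and 0.482 to 13.4 FPKM in wild type. Of these 5 had log2 fold changes above 0 and 15 below, between -0.91 and 1.40, and their smallest adjusted p was 0.0758. The 8 untested members were Slc25a2, Slc25a21, Slc25a34, Slc25a41, Slc25a43, Slc25a45, Slc25a47 and Slc25a54. Slc25a45 (chosen after its values were seen) had 63, 6, 51 and 3 reads in knockout replicates 1 to 4 and 0 reads in every wild-type library. Against a floor of 3 reads over the wild-type group (0.0281 FPKM), its knockout mean of 0.941 FPKM was at least 33.5-fold higher. That mean rests on knockout replicates 1 and 3 (1.95 and 1.55 FPKM), and the bound does not hold for replicates 2 and 4 (0.149 and 0.114 FPKM). Floors cover counting error only, since reads amplified from few cells are not independent molecules.

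Libraries of the genotypes did not overlap in 13 of the 39 tested members, against 39.9% of all genes tested. These were 3 higher in knockout (Slc25a11, Slc25a33 and Slc25a36) and 10 lower (among them Slc25a1, Slc25a5, Slc25a15, Slc25a26, Slc25a35, Slc25a37, Slc25a39, Slc25a44 and Slc25a48). Of 13 calls, 6 held in each of 18 alternative settings, among them Slc25a33 higher, and Slc25a1, Slc25a15, Slc25a26 and Slc25a39 lower. Slc25a35 and Slc25a37 also held wherever they passed the filter, which they met through the 4 wild-type libraries. In knockout only replicate 3 reached 1 FPKM in either gene. That they were tested thus rests on the genotype where they are high, and their held calls are no added support. With the filter at 5 FPKM, Slc25a15 and Slc25a26 passed only with the wild-type libraries and Slc25a33 only with the knockout ones. Those are the genotypes where these genes are high, so their held calls in that setting are no added support either. A held call is not a held size: the GC correction left Slc25a1 at -0.70 (adjusted p = 0.0415), against -1.30 before, and Slc25a39 at -0.72 (adjusted p = 0.0231), against -1.36 before.

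The fold changes of the carriers moved with the GC content of their transcripts. Across the 39 tested members Spearman's rho between GC content and log2 fold change was -0.53, and it was -0.37 across 11220 genes. These genes share the same 8 libraries and are not independent replicates. Members called higher had a median GC content of 41.1%, those called lower 53.8% and the rest 48.5%. After the GC correction 3 members were again called higher, beside 13.8% of the 11220 genes in that fit, but they were Slc25a33, Slc25a11 and Slc25a4, with Slc25a31 and Slc25a36 no longer called. Lower were 9, beside 24.8% of those genes, among them Slc25a16 (-1.29, limma adjusted p = 0.0141) and Slc25a53 (-0.81, adjusted p = 0.0295), which were not called before. Slc25a16 was also called lower without knockout replicate 3 (adjusted p = 0.0334). The part of GC content in the differences was not tested beyond this correction.

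**Figure D4:**
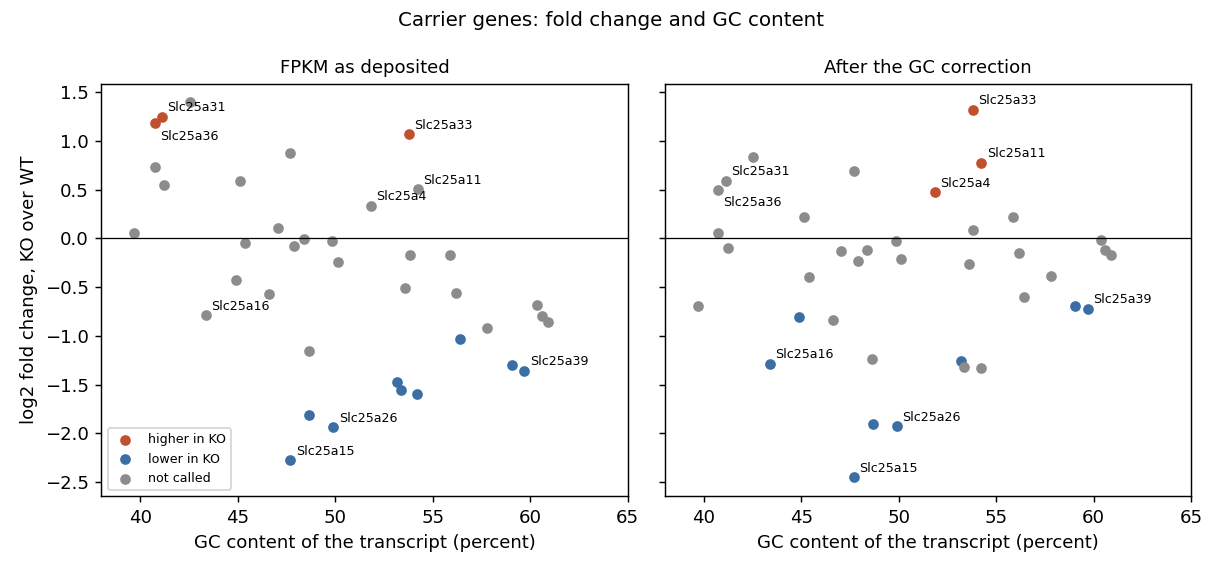
Log2 fold change of the tested carrier genes reported here, KO over WT (y axis), against the GC content of the transcript in percent (x axis), from FPKM as deposited (left) and after the GC correction (right). Points are genes coloured by their call in that fit. Slc25a31 goes to 0.59 on the right, against 1.25 on the left, while Slc25a26 stays at -1.93 in both.

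Other genes of mitochondrial transport, listed for comparison, also went both ways. Of 44 listed genes 37 were tested, with a median log2 fold change of -0.18. Called higher were 6 (16.2%, against 17.7% of all genes) and lower 10 (27.0%, against 25.6%). After the GC correction 5 were called higher and 7 lower, beside 13.8% and 24.8% of all genes in that fit. The genes of this list are given here from FPKM as deposited, with no GC-corrected values by gene. On the route by which carriers are imported, Tomm70a, the outer membrane receptor for carriers, was called higher at 28.1 ± 3.25 FPKM in knockout and 18.1 ± 1.89 FPKM in wild type (SD, n = 4 each, limma adjusted p = 0.0227). The pore gene Tomm40 was lower at 6.33 ± 1.0999 and 19.7 ± 1.66 FPKM (adjusted p = 0.000269), and the chaperone gene Timm9 at 8.04 ± 1.80 and 30.7 ± 5.19 FPKM (SD, n = 4 each, adjusted p = 0.000122). Timm29 and Timm13 were also called lower and Timm8b higher, and Timm22, the insertase itself, was not called (24.02 ± 3.23 and 20.2 ± 7.81 FPKM, SD, n = 4 each). The partner of Timm9 in its chaperone complex, Timm10, was not called (45.1 ± 3.73 and 61.0 ± 19.5 FPKM, SD, n = 4 each).

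Relatives of the carriers under other names, and other transporters of mitochondria, were called in both directions. Mtch2, a carrier-like insertase of the outer membrane, was higher (39.2 ± 9.35 FPKM in knockout and 17.2 ± 3.54 FPKM in wild type, SD, n = 4 each, limma adjusted p = 0.00275), and its paralog Mtch1 was lower (5.00 ± 1.77 and 16.4 ± 6.50 FPKM, SD, n = 4 each, adjusted p = 0.00571). The outer membrane channel genes Vdac2 and Vdac3 were called higher, with log2 fold changes of 1.06 and 0.74, and Vdac1 was not called (-0.58, adjusted p = 0.260). Mpc1, a subunit of the pyruvate carrier, was higher at 5.84 ± 1.26 and 1.99 ± 0.786 FPKM (SD, n = 4 each). Abcb8, a transporter of the inner membrane, was 8.13-fold lower (1.71 ± 0.619 and 13.9 ± 3.34 FPKM, SD, n = 4 each, adjusted p = 8.0e-05), and Abcb10, Sfxn2 and the calcium uniporter gene Mcu were called lower too. Of the regulators listed, Esrra, a nuclear receptor that drives mitochondrial genes, was called lower (0.365 ± 0.353 and 2.04 ± 0.483 FPKM, SD, n = 4 each), and Nrf1, Gabpa and Tfam were not called. Esrra reached 1 FPKM in the wild-type libraries alone, so it was tested only through the genotype where it is high.

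Depth and identity of the libraries bear on these values as follows. The reads behind the FPKM values, recovered from their steps, numbered 9564416 to 14542893 per knockout library and 8321942 to 11941359 per wild-type library. Rbpms2 itself averaged 42.5 ± 11.5 FPKM in knockout and 168.5 ± 32.3 FPKM in wild type (SD, n = 4 each), without overlap. Of the 7 oocyte and germ cell markers, 3 were called higher and 4 lower. Ddx4, an RNA helicase, and Dazl, an RNA-binding protein, were among the 3 called higher. The 4 called lower are not given here by gene, so Ddx4 and Dazl do not stand for the list. Ddx4 averaged 196.7 ± 106.8 FPKM in knockout and 69.0 ± 14.4 FPKM in wild type (SD, n = 4 each), a log2 fold change of 1.36 (limma adjusted p = 0.00843). Dazl averaged 520.7 ± 114.2 FPKM in knockout and 249.9 ± 57.4 FPKM in wild type (SD, n = 4 each), a log2 fold change of 1.06 (limma adjusted p = 0.00302). The sum of the 7 oocyte and germ cell markers was lower in knockout, at 1779 to 2815 FPKM, than in wild type, at 4010 to 6106 FPKM. Markers of other cells varied: granulosa markers summed to 6.54 to 418.5 FPKM in knockout and 0.334 to 43.5 FPKM in wild type, stromal markers to 8.12 to 336.4 and 3.56 to 77.5 FPKM, immune markers to 17.1 to 448.0 and 7.05 to 23.7 FPKM, endothelial markers to 3.08 to 296.7 and 1.55 to 2.66 FPKM, and smooth muscle markers to 0.719 to 8.98 and 6.67 to 16.3 FPKM. No marker was at 0 in every library. Called were 1 of 8 tested granulosa markers and 2 of 6 immune markers, all higher, 1 of 2 smooth muscle markers, lower, and 0 of 9 stromal markers and 0 of 1 endothelial marker. Without knockout replicates 2 and 3 and wild-type replicate 3, the libraries highest in stromal markers within their genotype, 5 carriers were called higher (beside 17.9% of all genes) and 12 lower (beside 26.3%), among them Slc25a5, Slc25a14 and Slc25a17. The part of other cells in the carrier differences was not tested otherwise.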

How the data were processed

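The authors deposited FPKM per gene and library in 1 table of 21959 genes. Tools named, per the submitters' processing notes, are HISAT2, HTSeq and cutadapt, with the GRCm38 (mm10) build, and the sources used here give no versions, annotation release or use of strand. Symbols (21851 genes), exon lengths (21902) and GC content (the longest coding transcript) came from GENCODE M21. FPKM times exon length came in steps of 1 read (97.4% to 97.6% of values above 0 whole within 0.02 reads), which gave depths and floors. Libraries of 1 genotype differed by far more than counting noise (lowest chi-square per degree of freedom 35.4). Limma 3.58.1 (R 4.3.3; eBayes with trend) compared the genotypes, with no covariate, on log2(FPKM + 1) of genes reaching 1 FPKM in 4 libraries or more, with Benjamini-Hochberg adjustment over 11235 genes. Low genes change less on this scale than in FPKM, and folds are ratios of mean FPKM. The steps were tested on simulated data. Alternatives changed the pseudocount (0.1, 5), the filter (none, 5 FPKM) or the scaling (equal totals, median of ratios), or used a GC correction (loess, span 0.5), the replicate number as a block or fewer libraries. Members and lists were chosen with earlier results of these data known. Named by rule were the ADP/ATP carriers, every called member and uncalled members with a mean of 20 FPKM or more, and others were chosen with values in view. Some genes count in totals and are not reported here by name. Coding sequences were aligned with Biopython 1.88, and tables and figures used Python 3.11.15, pandas 2.3.3 and matplotlib 3.10.9.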

Additional observations from a re-analysis of the deposited data

Results flagged for a closer look

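Within groups of 4 libraries, 3 of the 38 groups looked at (19 named carriers in 2 genotypes, log2(FPKM + 1) scale) held a library far from the other 3, where chance flags about 1 in 20 groups. Slc25a3 stood at 95.7 FPKM in knockout replicate 2, with the other knockout libraries between 67.1 and 68.4 FPKM. Slc25a37 stood at 1.62 FPKM in knockout replicate 3, with the others at 0.156 FPKM or below. Slc25a33 stood at 6.61 FPKM in wild-type replicate 1, with the others between 4.33 and 4.37 FPKM.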

How the results depend on the processing

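Under 18 alternative settings the count of carriers called higher, 3 with all libraries, was 5 after median-of-ratios scaling (which moved the median of all genes from -0.12 to 0.00) and 5 without knockout replicates 2 and 3 and wild-type replicate 3. Leaving out each library gave 3 to 5, with 5 without knockout replicate 3 (Slc25a14 and Slc25a17 added) and 5 without knockout replicate 4 (Slc25a24 and Slc25a46 added). The count called lower, 10, was 5 with a filter at 5 FPKM, which left 20 members to test, and 8 to 11 with each library left out. For other mitochondrial transport genes these ranges were 4 to 7 higher and 7 to 10 lower. The share of Slc25a31 among the ADP/ATP carriers was 25.04 percentage points higher in knockout, and 21.1 to 31.1 points with each library left out. Its alternatives only left libraries out, and none corrected the share for GC content. The log2 fold change of Slc25a3 (-0.01) changed sign, at 0.017 with equal totals, 0.14 with median-of-ratios scaling, and 0.03 without knockout replicate 1, 0.03 without knockout replicate 3, 0.04 without knockout replicate 4, 0.07 without wild-type replicate 2 and 0.082 without wild-type replicate 3, and ranged from -0.13 to 0.082 with each library left out. The cause was not tested. With the replicate number as a block 4 carriers were higher and 11 lower, with Slc25a14 and Slc25a5 added, and with the GC correction and the block 3 and 10. In that last fit Slc25a31 (0.59, limma adjusted p = 0.0155) and Slc25a48 (-1.33, adjusted p = 0.0308) were called and Slc25a4 was not (0.48, adjusted p = 0.0585), unlike with the GC correction alone. Same-numbered libraries deviated together only in part (correlations 0.19, 0.02, 0.36 and -0.05 for knockout replicates 1 to 4). The highest correlations with a library of another number were 0.08, 0.09, 0.06 and 0.33. Replicates 1 and 3 thus went best with their own number and replicates 2 and 4 with another. These values do not settle whether the numbers pair the samples. Genes under a few FPKM are limited by depth and by amplification from few cells.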
